A study of Mus musculus with 4 samples.

Results

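The enzymes that break down the branched-chain amino acids leucine, isoleucine and valine were measured in cultured fat cells grown from the mouse preadipocyte line 3T3-F442A. The members are 10 genes, Bcat1, Bcat2, Bckdha, Bckdhb, Dbt, Dld, Bckdk, Mccc1, Pcca and Auh, read by 14 Affymetrix probe sets whose annotation names 1 gene, of 12393 genes and 22626 probe sets in all. The genes were chosen from this pathway with the differences between the groups of these same arrays in view. Their differences, and the number of them past any threshold, are therefore a description and not a test.

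There were 4 arrays, 2 labelled shGFP, a control hairpin, and 2 labelled shTRPV4, a hairpin against the calcium-permeable channel gene Trpv4. Both groups were 3T3-F442A preadipocytes infected with a hairpin retrovirus and held in puromycin at 2 ug/ml for 2 days. At confluence both received 850 nM insulin for 8 days, together with rosiglitazone, an agonist of PPAR gamma, over the first 2 days. The labels do not say how many hairpins were used or whether the replicates were separate infections or cultures, so a p-value here reflects the scatter of these 4 arrays alone, and that scatter may be technical.

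Values are deposited intensities in linear units. Differences are shTRPV4 minus shGFP means of quantile-normalized log2(intensity + 16) values, with the standard error (SE) of limma's fit. A value passed where limma's adjusted p (Benjamini-Hochberg over all probe sets) was under 0.05. The probe set of Trpv4 itself (1417545_at) read 43.7 and 93.8 in the shGFP arrays and 80.1 and 79.5 in the shTRPV4 arrays. Its groups overlapped (difference 0.32, SE 0.31, limma adjusted p = 0.55), so these arrays did not show the knockdown. The group names below are labels only.

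As background, each branched-chain amino acid first passes its amino group to 2-oxoglutarate, through Bcat1 in the cytosol or Bcat2 in mitochondria. The resulting ketoacid is then oxidised by the branched-chain ketoacid dehydrogenase complex of the mitochondrial matrix, the committed step, which the kinase Bckdk inhibits. Separate branches turn the products into acetyl-CoA, acetoacetate and, through propionyl-CoA, succinyl-CoA, and differentiated fat cells are known to use this carbon for lipid synthesis.

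RefSeq promoter windows (GRCm38.p6, 250 bases before to 50 after an annotated start) were matched for 9 of the 10 genes, as 13 windows. The windows of 3 subunits of the dehydrogenase complex, whose readings were higher in the shTRPV4 arrays, and of Bcat1, whose readings were lower, are shown to set the promoters of members that differed in opposite directions side by side. Each is the 250 bases before the outermost annotated start, 5′ to 3′ on the gene's strand, with capitals for every match, on either strand, to the 6 motifs named after the sequences.

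Bckdha, chr7:25658762-25659011, minus strand: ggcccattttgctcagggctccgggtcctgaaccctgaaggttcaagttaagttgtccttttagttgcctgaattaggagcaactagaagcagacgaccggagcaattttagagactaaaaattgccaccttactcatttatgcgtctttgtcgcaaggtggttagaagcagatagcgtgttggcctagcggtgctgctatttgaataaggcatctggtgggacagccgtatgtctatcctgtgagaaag
Bckdhb, chr9:83924887-83925136, plus strand: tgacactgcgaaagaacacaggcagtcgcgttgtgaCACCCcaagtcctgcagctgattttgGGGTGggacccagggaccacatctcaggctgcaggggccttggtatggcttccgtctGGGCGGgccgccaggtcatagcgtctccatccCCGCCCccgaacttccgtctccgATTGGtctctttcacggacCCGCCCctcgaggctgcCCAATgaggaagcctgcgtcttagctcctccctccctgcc
Dld, chr12:31351472-31351721, minus strand: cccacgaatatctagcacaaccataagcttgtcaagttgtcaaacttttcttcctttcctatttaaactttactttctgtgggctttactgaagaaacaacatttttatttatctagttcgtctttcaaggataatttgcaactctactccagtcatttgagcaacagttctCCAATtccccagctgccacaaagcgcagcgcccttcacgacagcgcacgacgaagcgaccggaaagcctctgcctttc
Bcat1, chr6:145076158-145076407, minus strand: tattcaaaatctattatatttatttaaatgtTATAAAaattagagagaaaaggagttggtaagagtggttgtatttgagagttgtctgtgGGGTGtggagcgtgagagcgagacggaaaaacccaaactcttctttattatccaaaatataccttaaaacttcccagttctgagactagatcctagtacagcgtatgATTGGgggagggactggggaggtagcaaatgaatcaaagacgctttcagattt

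The shown stretch of Bckdha held 0 matches, that of Bckdhb 7, that of Dld 1 and that of Bcat1 3. CCAAT, the letters of the box bound by NF-Y, was in 8 of the 13 whole windows of these genes, against 37.4% of 32851 windows of all genes. GGGCGG, the GC box letters, was in 4 of 13 windows (35.7% of all windows), and CACCC, a motif read by Krüppel-like factors, in 8 of 13 (57.5%). TATAAA was in 2 of 13 windows, those of Bcat1 and Bckdk (13.6% of all), and TGCGCA in 1, that of Dld (7.76%). AAGGTCA, core letters of the element bound by estrogen-related receptors, was in 0 of 13 (4.72% of all). The motifs do not overlap one another in the shown stretches, and a match is a description of letters only.

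Across the 14 probe sets, 5 were higher and 2 lower past the threshold in the shTRPV4 arrays and 7 did not pass. Over all 22626 probe sets 4.54% were higher and 5.36% lower past it, a background from which nothing is read here because the members were chosen on this comparison. As deposited, both shTRPV4 arrays lay above both shGFP arrays for 8 of the 14 (26.2% of all probe sets) and below them for 4 (30.3% of all). The other 2, both dim Auh probe sets, overlapped. With 1 probe set per gene, the one with the highest mean level, the 10 genes had a median difference of 0.41, from −0.78 for Bcat1 to 0.93 for Bckdha, and the median over 12393 genes was 0.02.

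**Figure D1:**
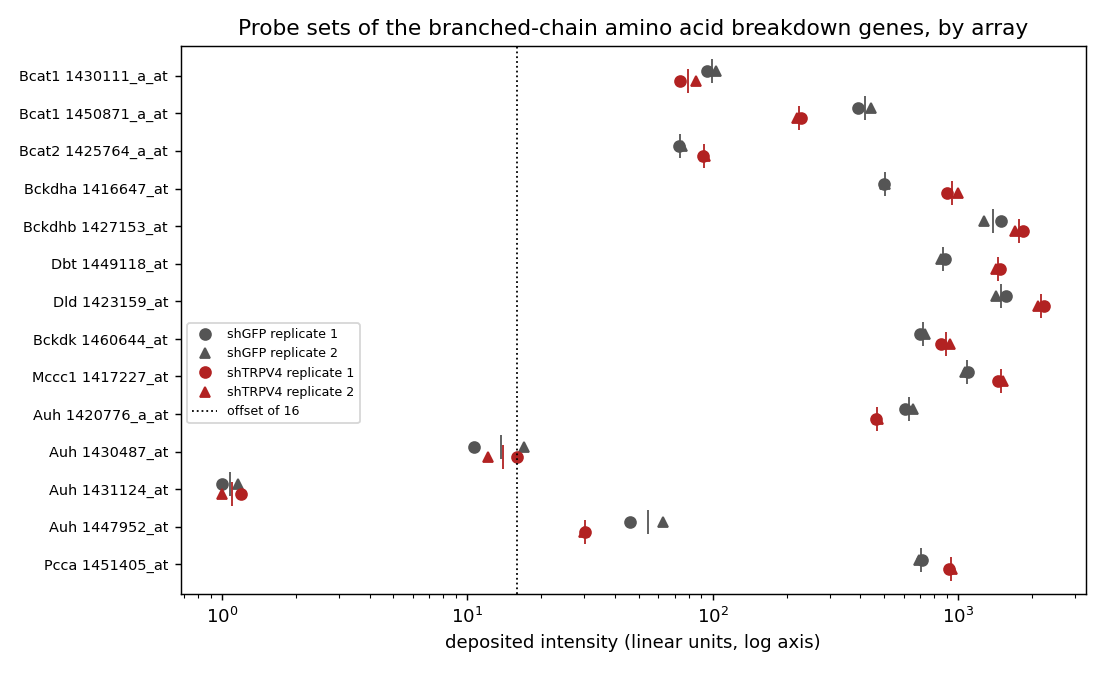
Deposited intensity of the 14 probe sets (log axis) in each of the 4 arrays, with circles for replicate 1, triangles for replicate 2, vertical ticks for group means and a dotted line at the offset of 16. The shTRPV4 readings of Bckdha (899 and 997) lie well to the right of its shGFP readings (500.4 and 505), and those of Bcat1 1450871_a_at (229 and 221) to the left of its shGFP readings (392 and 441).

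The pair of transaminases differed in opposite directions. Bcat1, the cytosolic enzyme, read 392 and 441 in the shGFP arrays and 229 and 221 in the shTRPV4 arrays on its brighter probe set (1450871_a_at). The replicates within either group were 0.09 apart on the log2 scale, and the closest arrays of the 2 groups 0.69 apart, with a log2 difference of −0.78 (SE 0.08), a 1.71-fold lower level on the log2(intensity + 16) scale. Its other probe set (1430111_a_at) read 95.2 and 103 against 73.4 and 85.8, also lower in both shTRPV4 arrays but by less (−0.19, SE 0.09), and did not pass. The suffix _a_at marks probe sets that read alternative transcripts of 1 gene, so the 2 probe sets of Bcat1 need not read the same transcripts. Bcat2, the mitochondrial enzyme, read 72.8 and 74.7 in the shGFP arrays and 91.7 and 93.5 in the shTRPV4 arrays. Its groups did not overlap, and the replicates within them were at most 0.01 apart on the log2 scale (difference 0.36, SE 0.06).

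All 4 subunit genes of the dehydrogenase complex read higher in both shTRPV4 arrays than in either shGFP array, by unequal amounts. Bckdha, the alpha subunit of the E1 decarboxylase, went from 500.4 and 505 to 899 and 997 (0.93, SE 0.07), the largest difference among the 10 genes and 1.91-fold higher. Dbt, the E2 transacylase core, went from 886 and 852 to 1487 and 1428 (0.77, SE 0.09). The gap between the closest arrays of the 2 groups was 0.86 for Bckdha and 0.65 for Dbt, several times the gaps between replicates. Both passed.

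The other subunits did not pass. Dld, the E3 dihydrolipoyl dehydrogenase that this complex shares with the pyruvate and 2-oxoglutarate dehydrogenases, read 1569 and 1431 in the shGFP arrays and 2248 and 2121 in the shTRPV4 arrays (0.57, SE 0.10). Bckdhb, the E1 beta subunit, read 1502 and 1281 against 1846 and 1708 (0.39, SE 0.13). For Bckdhb the closest arrays of the 2 groups were 0.17 apart, less than the 0.27 between its own shGFP replicates.

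Bckdk, the kinase that phosphorylates the E1 alpha subunit and so inhibits the complex, read 702 and 736 in the shGFP arrays and 852 and 926 in the shTRPV4 arrays. Its shTRPV4 readings were higher than both controls (0.34, SE 0.06), but it did not pass.

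Enzymes further down the leucine branch were split. Mccc1, the biotin-carrying subunit of methylcrotonyl-CoA carboxylase, read 1099.8 and 1067 in the shGFP arrays and 1461 and 1524 in the shTRPV4 arrays (0.49, SE 0.07). Auh, the methylglutaconyl-CoA hydratase of the next step, which also binds AU-rich RNA, went the other way on its brightest probe set (1420776_a_at), from 609.6 and 654 to 461 and 471 (−0.38, SE 0.06). Neither pair of groups overlapped, and both values passed. A dimmer Auh probe set (1447952_at) read 46.3 and 62.6 against 30.1 and 30.0 (−0.56, SE 0.13), lower as well but not past the threshold. The remaining Auh probe sets gave no usable comparison: 1430487_at read between 10.6 and 17.0 and 1431124_at between 1.0 and 1.2, around or below the offset.

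Pcca, the biotin-carrying subunit of propionyl-CoA carboxylase, which takes up the propionyl-CoA of isoleucine and valine, read 716 and 696 in the shGFP arrays and 919 and 945 in the shTRPV4 arrays (0.43, SE 0.07). It passed, as did Bcat2, by a narrow margin (limma adjusted p = 0.0493 and 0.0497), and Dld lay just past the threshold on the other side (0.0519).

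These calls rest on all 4 arrays. A fit with any 1 of the 4 left out has 1 residual degree of freedom. Over the whole series limma kept no call in such a fit, so the loss of the member calls is not particular to them. None of the 12 probe sets other than 1430487_at and 1431124_at changed direction in those fits.

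**Figure D2:**
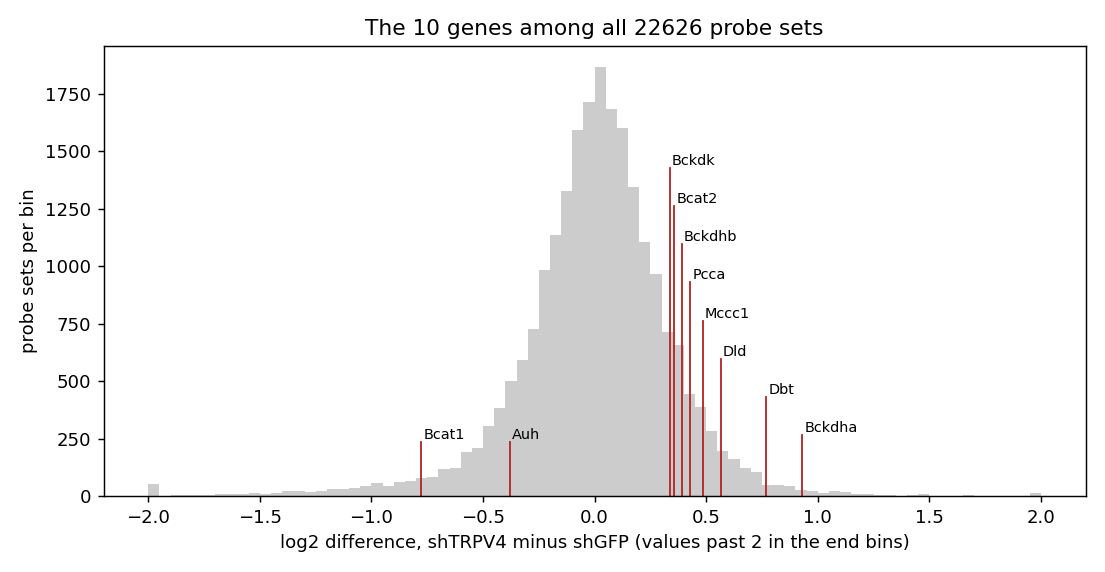
Histogram of the log2 difference (shTRPV4 minus shGFP) of all 22626 probe sets, with the brightest probe set of each of the 10 genes marked by a vertical line. Bcat1 (−0.78) and Auh (−0.38) lie left of the centre and the other 8 between 0.34 and 0.93.

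The pathway has further enzymes and transporters, and 26 of them were listed from textbook knowledge rather than by their values, of which 22 were measured and the others were not analysed here. Earlier results of these data were known when the list was made, so its counts are a description and not a test. By limma, 2 rose in the shTRPV4 arrays, 0 fell and 20 did not pass, on 1 probe set per gene, and 15 had a positive difference and 1 a negative one at an unadjusted p under 0.05. In the background of 12393 genes 5.33% rose and 6.0% fell, and 17.9% had a positive and 15.2% a negative difference at an unadjusted p under 0.05. The differences were small and mostly of the same sign, positive for 21 of the 22 with a median of 0.34, against 53.5% positive and a median of 0.02 over all genes. That background includes many dim genes, whereas 21 of the 22 stayed in a fit with probe sets under the 50th percentile left out. In that fit 17 had a positive and 1 a negative difference at an unadjusted p under 0.05. Among the 6817 genes kept there, the shares were 30.4% and 24.2%.

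The genes that rose on their brightest probe set were Mcee and Mmaa. Over all 36 probe sets of the 22 genes 6 rose, the other 4 being dimmer probe sets of Mmut, Ivd and Acat1. Mcee, the methylmalonyl-CoA epimerase, read 752 and 801 in the shGFP arrays and 1001 and 1049 in the shTRPV4 arrays (0.42, SE 0.06, limma adjusted p = 0.038). Mmaa, which helps deliver the cobalamin cofactor to methylmalonyl-CoA mutase, went from 321 and 357 to 445 and 439.9 (0.43, SE 0.07, limma adjusted p = 0.045). Pccb, the partner subunit of Pcca, read 266 and 226 against 356 and 334 and did not pass (0.53, SE 0.13, limma adjusted p = 0.089), with a gap between its shGFP arrays wider than that of Pcca.

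The largest differences that did not pass were those of Aldh6a1, the methylmalonate semialdehyde dehydrogenase of the valine branch (0.62, SE 0.13), and Hlcs, which attaches biotin to the carboxylases (0.60, SE 0.12). Mccc2, the partner subunit of Mccc1, followed (0.55, SE 0.16). Their limma adjusted p-values were 0.069, 0.065 and 0.11.

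Some genes, singled out after their values were seen, showed where probe sets or steps differed. Mmut, the methylmalonyl-CoA mutase, did not pass on its brightest probe set (1448486_at, 0.35, limma adjusted p = 0.063) and rose on 1416838_at (0.44, limma adjusted p = 0.042). Ivd, the isovaleryl-CoA dehydrogenase that precedes Mccc1, did not pass on its brightest probe set (1449001_at, 0.41, SE 0.08, limma adjusted p = 0.056). Its other probe set (1418238_at) read 724 and 717 in the shGFP arrays and 1365 and 1351 in the shTRPV4 arrays and rose (0.93, SE 0.07, limma adjusted p = 0.018). Acat1, the mitochondrial thiolase of isoleucine and ketone metabolism, likewise did not pass on its brightest probe set (1424183_at, 0.41, limma adjusted p = 0.055) and rose on 1451271_a_at (0.51) and 1424182_at (0.62). Hsd17b10, the dehydrogenase just before Acat1, read 1465 and 1578 against 1271 and 1317 (−0.20, SE 0.06, limma adjusted p = 0.14). On the brightest probe sets it had the 1 negative difference among the 22. Slc7a6, a listed transporter, had a positive difference on its brightest probe set (1460541_at, 0.20, SE 0.09) and a negative one on 1433467_at (−0.17, SE 0.09). Its groups did not overlap on either probe set as deposited, and neither passed. Hibch, a hydrolase of the valine branch, read 869 and 758 against 790.3 and 805, with overlapping groups (0.011, 95% interval −0.31 to 0.34). For Slc3a2, the heavy chain of the leucine transporter, the groups also overlapped (0.0032, 95% interval −0.17 to 0.18). Both near-zero values turned negative with the values as deposited (−0.024 and −0.034).

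The number of these pathway genes past the threshold depended on the settings. It was 2 higher here, 0 with the values as deposited or with an offset of 1, and between 6 and 15 under the other alternatives that kept all 4 arrays and had no block. With any 1 array left out limma kept no call of the whole series, so those fits say nothing particular about these genes.

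**Figure D3:**
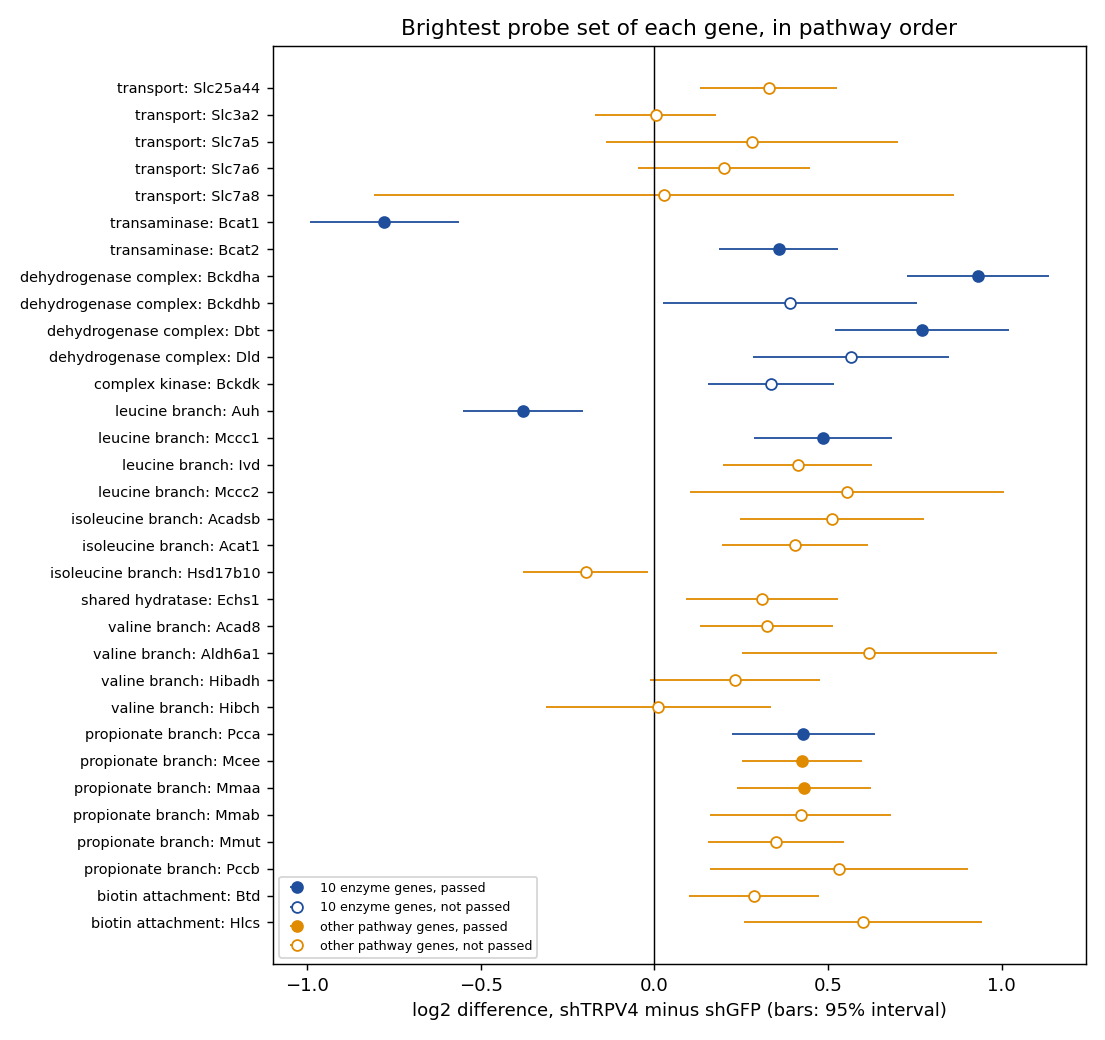
Log2 difference (shTRPV4 minus shGFP) with its 95% interval for the brightest probe set of the 10 genes (blue) and the 22 other measured pathway genes (orange), in pathway order, filled where limma's adjusted p was under 0.05. Bcat1, Auh and Hsd17b10 are the points left of 0.

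Scaling between arrays moved the balance of calls. Over all 22626 probe sets the share of calls that were higher was 45.8% after quantile normalization (1027 higher, 1213 lower), 34.1% with the values as deposited (600 and 1161) and 59.3% with median centring (1662 and 1141). For Bckdha the difference ranged from 0.87 to 0.99 over every alternative run, and for Dbt from 0.71 to 0.83. Bcat1 (1450871_a_at) ranged from −0.84 to −0.68 and Auh (1420776_a_at) from −0.43 to −0.33. The call for Auh was lost both with the values as deposited and with median centring, and those for Bcat2 and Pcca with the values as deposited. With an offset of 1, Bckdha was the 1 member probe set that kept its call, and Bcat2 also lost its call in a fit with an intensity trend. Other alternatives added calls: Dld passed in 6 of them, Bckdk in 5, and Bckdhb and Auh 1447952_at in 1 each.

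**Figure D4:**
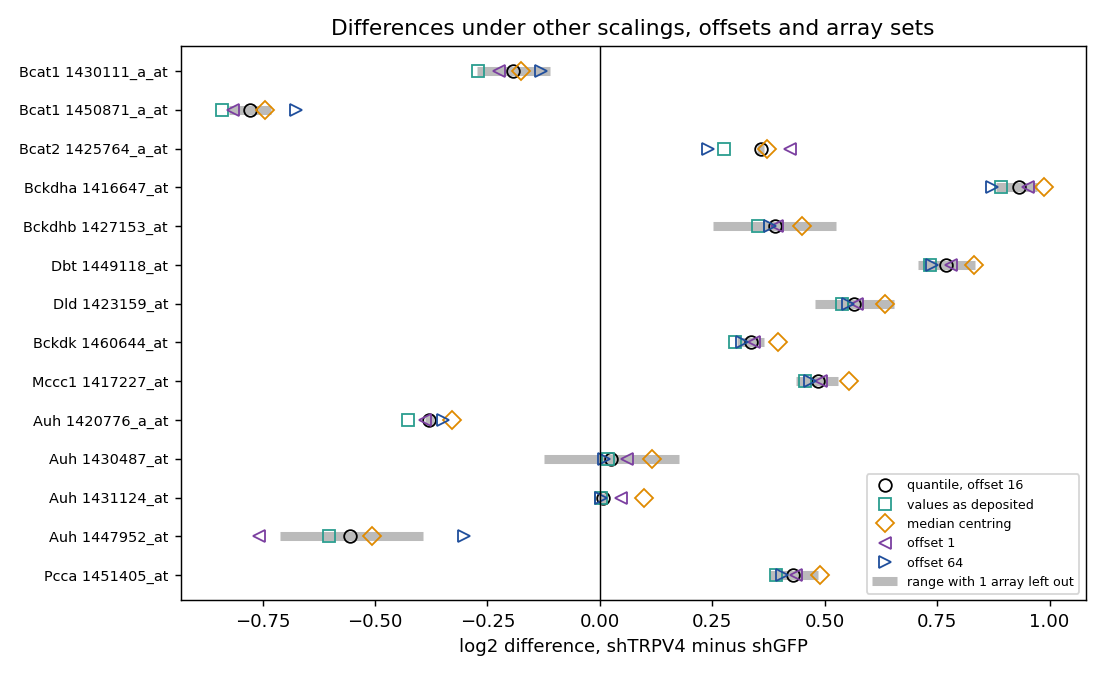
Log2 difference (shTRPV4 minus shGFP) of the 14 probe sets under quantile normalization, the values as deposited, median centring and offsets of 1 and 64, with grey bars for the range when 1 array is left out. Apart from the dim Auh probe sets 1430487_at and 1431124_at, the symbols and bars of each probe set stay on 1 side of 0.

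The arrays also differed in markers of cell state, counted here beside 5.33% of all 12393 genes that rose and 6.0% that fell. Of 8 adipocyte markers 7 were measured. Fabp4, the fatty acid-binding protein of fat cells, read 18099 to 19625 and was the brightest reading of each array, which quantile normalization sets equal, and Adipoq, which encodes adiponectin, read 11784 to 14169. Over the 7, Cebpa (0.88) and Pparg (0.45), transcription factors of fat cell formation, rose, Lep, which encodes leptin, fell (−1.77, to 3.93 and 4.92, under the offset), and 4 did not pass. The median difference, 0, was that of Fabp4 itself, which the normalization sets, so it does not measure a lack of change. Other Fabp4 probe sets differed by 0.46, 0.38 and 0.04, and none of them passed. The summed intensity of the 7 was 51767 to 51896 in the shGFP arrays and 55029 to 58161 in the shTRPV4 arrays. Of 7 measured preadipocyte and fibroblast markers 6 fell and 0 rose, and Col1a1 did not pass (−0.38, SE 0.07, limma adjusted p = 0.0505). The summed intensity of the 7 went from 27688 to 29422 down to 13825 to 14287, a sum that rests mostly on the bright markers. Dcn, the brightest in the shGFP arrays, went from 9104 and 9971 to 2903 and 3175, and the dim Cd34 from 85.3 and 99.5 to 31.2 and 35.8. Among 8 macrophage markers, on the brightest probe set of each, Lyz2 (−1.89), Cd14 (−0.96) and Csf1r (−0.85) fell. Cd68 rose (1.49, from 41.1 and 66.7 to 154 and 182) and 4 did not pass. The other Csf1r probe sets, 1419873_s_at (−0.13) and 1423593_a_at (−0.06), overlapped between the groups and did not pass. Summed intensities of the 8 were 938 to 1032 in the shGFP arrays and 601 to 656 in the shTRPV4 arrays. Of the 4 markers that did not pass, Adgre1 read 70.5 to 94.0, Itgam 9.0 to 29.5, Ptprc 5.43 to 11.2 and Fcgr1 1.13 to 3.27. The cultures were of a preadipocyte line, so the macrophage markers are not a measure of macrophage number. For the preadipocyte markers, fewer such cells and less RNA per cell cannot be told apart in RNA from whole cultures. The part of these markers in the differences of the breakdown enzymes was not tested.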

How the data were processed

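Total RNA of 4 samples was hybridised to Affymetrix mouse arrays as biotin-labelled cRNA, per the labels' protocols. The authors deposited 1 linear intensity per probe set and array (column medians 129 to 144), whose summarisation, background correction and scaling the sources used here do not state. No detection calls were used. Groups come from the sample titles.

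The values were taken as log2(intensity + 16). Their medians spanned 0.14, above the limit of 0.1 set for use as deposited, so they were quantile normalized. limma 3.58.1 in R 4.3.3 (lmFit, eBayes, no intensity trend) was fitted over all 22626 probe sets, with 2 residual and 1.80 prior degrees of freedom. A run on simulated data checked the estimated differences only, not the rate of false calls. The number of arrays limits the precision. The annotation pairs 20380 probe sets with 1 gene symbol and 691 with several, and leaves 1555 unnamed. Gene IDs of 20351 matched RefSeq GRCm38.p6. No coordinates of probe sets are given.

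The members, lists, motifs and alternatives were chosen with earlier results of these data known. The text names every probe set of the 10 genes and Trpv4. From the pathway list and the list of related dehydrogenase complexes it names the genes that passed, the 4 with the largest absolute difference that did not, and Pdk1 to Pdk4. Mmut, Ivd, Acat1, Hsd17b10, Slc7a6, Hibch, Slc3a2 and the cell type markers were named after their values were seen. No gene is named for a pattern like a member's, since 4 arrays in 2 groups give no usable measure of likeness. Alternatives were other scalings, offsets, filters on dim probe sets, an intensity trend, the replicate number as a block, each array left out, and averaged probe sets.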

Additional observations from a re-analysis of the deposited data

How the results depend on the processing

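Over all probe sets limma called 2240, against 606 with an offset of 1, 4116 with 64, 4059 and 4874 with probe sets under the 25th and 50th percentile left out, and 4150 with an intensity trend. Among the member probe sets, 5 higher became 4 with the values as deposited, 1 with an offset of 1, 6 with a trend and 7 with median centring, an offset of 64 or either filter. The 2 lower became 1 with the values as deposited, 1 with median centring, 0 with an offset of 1 and 3 with the 25th percentile filter, and were 2 with an offset of 64, the 50th percentile filter and a trend. The other pathway genes had 2 higher, against 0 with the values as deposited, 8 with median centring, 0 and 14 with offsets of 1 and 64, 13 and 15 with the 25th and 50th percentile filters, 13 with a trend and 6 with probe sets averaged. Of them 0 fell, against 1 (Hsd17b10) with the 50th percentile filter and with a trend, and 1 at an unadjusted p under 0.05. The filters kept 12 and 9 of the 14 member probe sets. With any array left out (range 0 to 0) or with the replicate block, each count of calls was 0, with 4543 to 5913 and 6858 of all probe sets at an unadjusted p under 0.05. Each of those fits has 1 residual degree of freedom. The samples share only a replicate number: the deviations of same-numbered arrays correlated at 0.12 over probe sets, from 2 pairs. The cause of the other changes was not tested.

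With 1 array left out or with the replicate block, limma kept no call of the whole series. Calls lost in those fits, and uncalled probe sets that stayed uncalled in them, are not particular to the members. Over 161 values of the 14 member probe sets under alternatives, those fits included, 99 kept their direction and side of the threshold. A further 46 kept their direction and lost the call, 13 gained one, and 3 changed sign. Those 3 were Auh 1430487_at (−0.12 without shGFP replicate 1, −0.06 without shTRPV4 replicate 1, and up to 0.18 with another array left out) and Auh 1431124_at (−0.0034 without shTRPV4 replicate 1, up to 0.017). Trpv4 ranged from −0.093 without shGFP replicate 1 to 0.73 without shGFP replicate 2. Hibch was −0.024 with the values as deposited, −0.12 without shGFP replicate 2, −0.0027 without shTRPV4 replicate 1 and 0.15 without shGFP replicate 1. Slc3a2 was −0.034 with the values as deposited, −0.0086 without replicate 1 of either group and up to 0.016 with another array left out. No detection calls bound the dim probe sets, so their signal over background is unknown.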

Other observations

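The pyruvate and 2-oxoglutarate dehydrogenase complexes are built like the branched-chain complex and use the same Dld. Of 12 genes listed for them and their kinases and phosphatases, 9 were measured (Pdhx, Pdp1 and Pdp2 were not analysed here), of which 1 rose, 1 fell and 7 did not pass, against 5.33% and 6.0% of all genes. Pdhb, the E1 beta subunit of the pyruvate complex, rose from 3610 and 3474 in the shGFP arrays to 5046 and 4881 in the shTRPV4 arrays (0.47, SE 0.08, limma adjusted p = 0.048). Its call was lost with an offset of 1. Dlst, the E2 core of the 2-oxoglutarate complex, fell from 1381 and 1376 to 605 and 653 (−1.08, SE 0.07, limma adjusted p = 0.016). Its dimmer probe set (1431011_at, 44.7 to 63.0) differed by −0.13 and did not pass. Both calls were lost, in limma, with any 1 array left out and with the replicate block, as was every other call of the series.

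Neither of the next subunits passed. Dlat, the E2 core of the pyruvate complex, read 739 and 671 against 945 and 961 (0.47, SE 0.10, limma adjusted p = 0.070), and Ogdh, the E1 of the 2-oxoglutarate complex, 746 and 718 against 603 and 617 (−0.21, SE 0.07, limma adjusted p = 0.16). Among the pyruvate dehydrogenase kinases, relatives of Bckdk, Pdk1 (0.45) and Pdk2 (0.45) had positive differences on their brightest probe sets, Pdk4 a difference of 0.10 and Pdk3 one of −0.19, and none of the 4 passed (limma adjusted p from 0.052 to 0.52). A further Pdk1 probe set (1423748_at) rose by 0.56 (limma adjusted p = 0.038).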
